A study of Mus musculus with 28 samples.

Results

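The genes described here are the D-type cyclins Ccnd1, Ccnd2 and Ccnd3, their kinase partners Cdk4 and Cdk6, and the CDK inhibitors Cdkn1a, Cdkn1b, Cdkn2a, Cdkn2b and Cdkn2c. They were picked by name, by matching the Ensembl ID of each row of raw counts, with its version dropped, to these 10 symbols, and all 10 were found among 50600 genes. The counts came from the mammary glands of 7 adult female C57BL/6 mice, from 10 weeks of age, that carried PdgfraCre and the R26mTmG reporter. In these mice cells that expressed Cre from Pdgfra, and all their descendants, carry membrane GFP, and every other cell carries membrane tdTomato. Each mouse gave 4 sorted populations depleted of CD31, Ter119 and CD45 cells: GFP+ and tdTomato+ stroma (CD49f- EpCAM-) and GFP+ and tdTomato+ luminal cells (CD49flo EpCAM+). Of the mice, 4 were untreated and 3 had received estrogen and progesterone (E+P), which made 8 groups and 28 libraries. The GFP label records past as well as present Pdgfra expression, so GFP+ luminal cells need not express Pdgfra when sorted, and how many cells recombined is set by the Cre.

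D-type cyclins bind and activate CDK4 or CDK6, and the active kinase phosphorylates RB so that E2F factors can switch on the genes of S phase. The CIP/KIP inhibitors p21 (Cdkn1a) and p27 (Cdkn1b) bind cyclin and kinase together, whereas the INK4 inhibitors p16 (Cdkn2a), p15 (Cdkn2b) and p18 (Cdkn2c) bind CDK4 and CDK6 alone. In the mammary gland cyclin D1 is known for its need in lobuloalveolar growth, and progesterone drives much of the epithelial division of the adult.

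Each library held between 8623383 and 24583803 counted reads (median 15329083.5), and levels are given as counts per 1000000 reads (CPM), with library sizes scaled by TMM. A gene at 0 counts may hold up to 3 counts, or 0.122 to 0.348 CPM depending on the library, which covers counting error only. Sorting labels were checked against marker lists. The 8 luminal epithelial markers summed to 3931 to 7306 CPM in luminal libraries, and the 7 fibroblast markers to 31745 to 61188 CPM in GFP+ stroma but 1792 to 6527 CPM in tdTomato+ stroma. The tdTomato+ stroma was mixed: pericyte and smooth muscle markers summed to 5943 to 9365 CPM, skeletal muscle fibre markers to 2380 to 21090 CPM and satellite cell markers to 201 to 339 CPM, all list members having counts. Luminal markers reached 291 and 472 CPM in untreated tdTomato+ stroma replicates 2 and 3 against 3.55 to 38.0 CPM with E+P. The 8 hormone-sensing luminal markers stood at 1215 and 1870 CPM in untreated GFP+ luminal replicates 1 and 3, against 282 to 428 CPM in the other untreated and 178 to 337 CPM in the E+P libraries. In bulk samples fewer cells of a type and less RNA per cell cannot be told apart.

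In the GENCODE M21 annotation of GRCm38 the genes lie on 6 chromosomes. The D cyclins are at chr7:144929931-144939925 (Ccnd1, minus strand), chr6:127125162-127152193 (Ccnd2, minus) and chr17:47505051-47599691 (Ccnd3, plus), and the kinases at chr10:127063534-127067920 (Cdk4, plus) and chr5:3341485-3531008 (Cdk6, plus). Cdkn1a lies at chr17:29090976-29100727 (plus) and Cdkn1b at chr6:134920401-134925513 (plus). The INK4 genes share chromosome 4, with Cdkn2a at chr4:89274471-89294653 next to Cdkn2b at chr4:89306299-89311039 and Cdkn2c farther off at chr4:109660876-109667189, all on the minus strand. Values are per gene, so the p16Ink4a and p19Arf transcripts of Cdkn2a are in 1 value. The strand setting of the counting is not given in the sources used here, so reads of a gene and of a neighbour that overlaps it on the opposite strand cannot be told apart. Such neighbours that entered the tests were Bysl for Ccnd3, Tspan31 for Cdk4, LTO1 for Ccnd1 and, with at most 30 counts in a library, 9330179D12Rik for Ccnd2, and their values stand beside the results below.

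Promoter windows of RefSeq (GRCm38.p6, 250 bases before to 50 bases after a transcript start) matched 8 of the 10 genes, with 12 windows, and those of Cdk4 and Cdkn1a are shown because these were the kinase and the CIP/KIP inhibitor called under E+P in luminal cells. The Cdk4 window, chr10:127063285-127063584 on the plus strand, is printed 5′ to 3′ with its E-boxes (CACGTG, the same on both strands) in capitals. The Cdkn1a window, chr17:29090729-29091028 on the plus strand, has a match to a p53 response element pattern in capitals. The match is a pair of short blocks with the bases between them, no more than 13, searched on both strands. Blocks that missed the pattern by a letter stay in lower case. This window is shown because it held the match, and the other Cdkn1a window held none.
Cdk4: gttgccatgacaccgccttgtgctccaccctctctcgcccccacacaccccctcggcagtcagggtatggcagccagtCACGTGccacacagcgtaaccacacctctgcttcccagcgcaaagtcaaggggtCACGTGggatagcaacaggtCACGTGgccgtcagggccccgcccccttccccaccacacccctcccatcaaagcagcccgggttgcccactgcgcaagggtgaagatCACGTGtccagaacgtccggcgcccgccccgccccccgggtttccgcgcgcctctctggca
Cdkn1a: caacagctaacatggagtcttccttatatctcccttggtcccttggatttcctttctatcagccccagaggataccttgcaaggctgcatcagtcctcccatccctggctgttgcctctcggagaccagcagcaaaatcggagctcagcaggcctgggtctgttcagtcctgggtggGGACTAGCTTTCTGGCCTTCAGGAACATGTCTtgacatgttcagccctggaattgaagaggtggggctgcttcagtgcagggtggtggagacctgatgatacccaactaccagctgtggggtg
The Cdk4 window held 4 E-boxes. An E-box was present in 7.15% of 32851 windows of all genes, and 4 or more in 0.0244% of them (8 windows). A match to the p53 response element pattern was present in 0.0731% of windows, the Cdkn1a window shown among them. The other windows of these genes held E-boxes in Cdk6 and Cdkn2c only, and Cdkn1b held 3 CCAAT boxes (CCAAT, in 37.4% of windows). A match is a run of letters and not a measured site, and none of the motifs overlapped in the capitals shown.

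Counts were compared with edgeR's quasi-likelihood test within each lineage, over 17783 genes in stroma and 16538 in luminal cells, and a gene was called at a Benjamini-Hochberg adjusted p under 0.01. Cdkn2a passed the filter on low counts in neither lineage and Ccnd2 did not pass it in luminal cells. Under E+P none of the 9 genes tested was called in GFP+ stroma, where 0.231% of all genes were called. None of the 9 tested was called in tdTomato+ stroma, where 0.124% were called. In the GFP+ stroma edgeR gave 1 gene with an unadjusted p under 0.05 and in tdTomato+ stroma 0, and DESeq2 and limma-voom called 0 in both. In GFP+ luminal cells 1 of 8 genes was called (Cdk4, higher), against 5.96% of all genes (3.17% higher), and in tdTomato+ luminal cells 3 of 8 (Cdkn1a and Cdkn2b higher, Ccnd3 lower), against 14.1% (7.63% higher, 6.44% lower). With E+P and untreated libraries that did not overlap there were 5 genes in GFP+ luminal cells (27.6% of all genes did so) and 5 in tdTomato+ luminal cells (35.8%), 2 in GFP+ stroma (13.0%) and 0 in tdTomato+ stroma (10.7%). A 2-sided exact permutation test of log2 CPM gave an unadjusted p of 0.0286, the smallest that 3 against 4 libraries allow, for Ccnd3, Cdk4 and Cdkn1b in GFP+ luminal cells and for Ccnd3 and Cdkn2b in tdTomato+ luminal cells, and 0.0571 or 0.114 for the other genes without overlap. A difference of the E+P response between the subsets was called for 0 of 9 genes in stroma, where 0.0450% of all genes were called. There 0 had an unadjusted p under 0.05 and 0 were called by DESeq2 or limma-voom. In luminal cells it was called for 0 of 8 in edgeR (2.27% of all genes), with 5 at an unadjusted p under 0.05. DESeq2 called 2, limma-voom 0, and edgeR with mouse as a block 2, Ccnd1 and Cdkn1b.

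**Figure D1:**
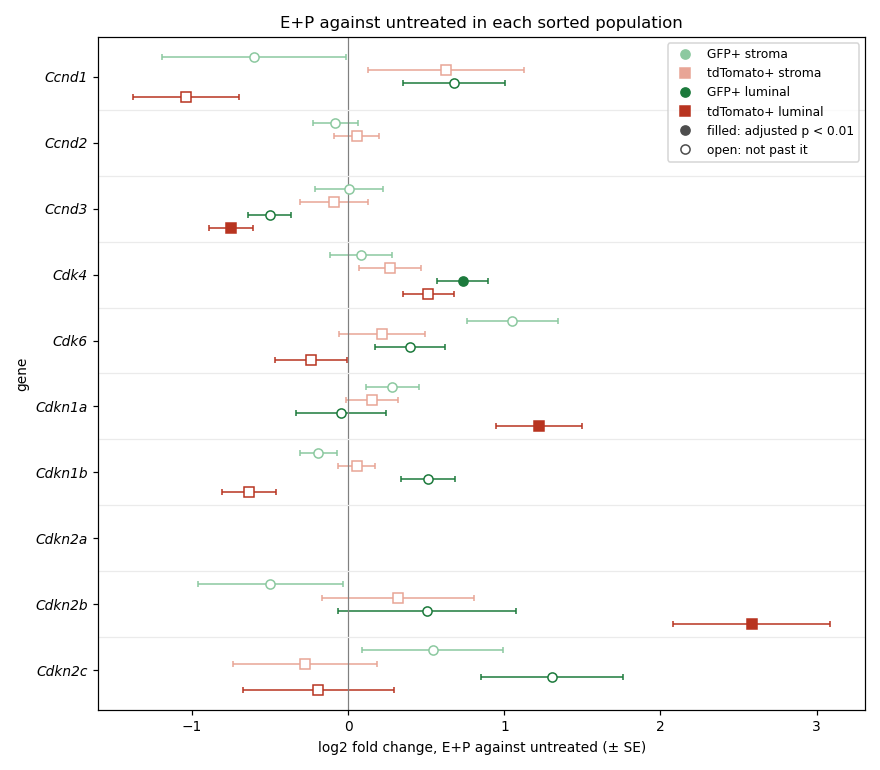
Log2 fold change of each gene between E+P and untreated libraries in the 4 sorted populations, from edgeR, with bars of 1 SE (4 untreated and 3 E+P mice). Filled points are called at an adjusted p under 0.01: Cdk4 at 0.73 in GFP+ luminal cells, and Cdkn2b at 2.58, Cdkn1a at 1.22 and Ccnd3 at -0.75 in tdTomato+ luminal cells.

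More of the genes were called between populations than between treatments. Between GFP+ and tdTomato+ stroma 6 of 9 genes were called, 1 higher and 5 lower in GFP+ cells, against 42.0% of all genes (20.6% higher, 21.3% lower), and between GFP+ and tdTomato+ luminal cells 6 of 8, 3 in each direction, against 34.7% (15.7% higher, 19.0% lower). The 7 GFP+ and 7 tdTomato+ libraries did not overlap for 5 of the genes tested in stroma (26.5% of all genes) and for 1 in luminal cells (12.0%). Between stroma and luminal cells 8 of 9 were called, 4 in each direction, against 63.5% of all genes (33.0% higher in stroma, 30.5% lower), and the 14 libraries of each did not overlap for 1 gene (14.4%). The subset difference itself differed between stroma and luminal cells for 4 of 9 genes, lower in stroma for Ccnd1, Cdk6 and Cdkn1b and higher for Cdkn2b, against 33.2% of all genes (16.3% higher, 17.0% lower). For each of these 4 genes the difference had the same sign in 7 of 7 mice, and exact sign flips over mice gave an unadjusted p of 0.0156, the smallest they can give. These comparisons use the same libraries and are not independent of each other. Their edgeR fits held no term for the mouse, so libraries of the same mouse were treated as independent. Marker sums also differed between the subsets. Hormone-sensing markers summed to 178 to 1870 CPM in GFP+ and 2269 to 5316 CPM in tdTomato+ luminal libraries. Progenitor and alveolar markers summed to 1393 to 3175 CPM in the former and 119 to 902 CPM in the latter. In GFP+ stroma pericyte and smooth muscle sums were 74.9 to 134 CPM and skeletal muscle fibre sums 7.66 to 16.1 CPM. The part of this makeup in the subset differences of these genes was not tested.

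**Figure D2:**
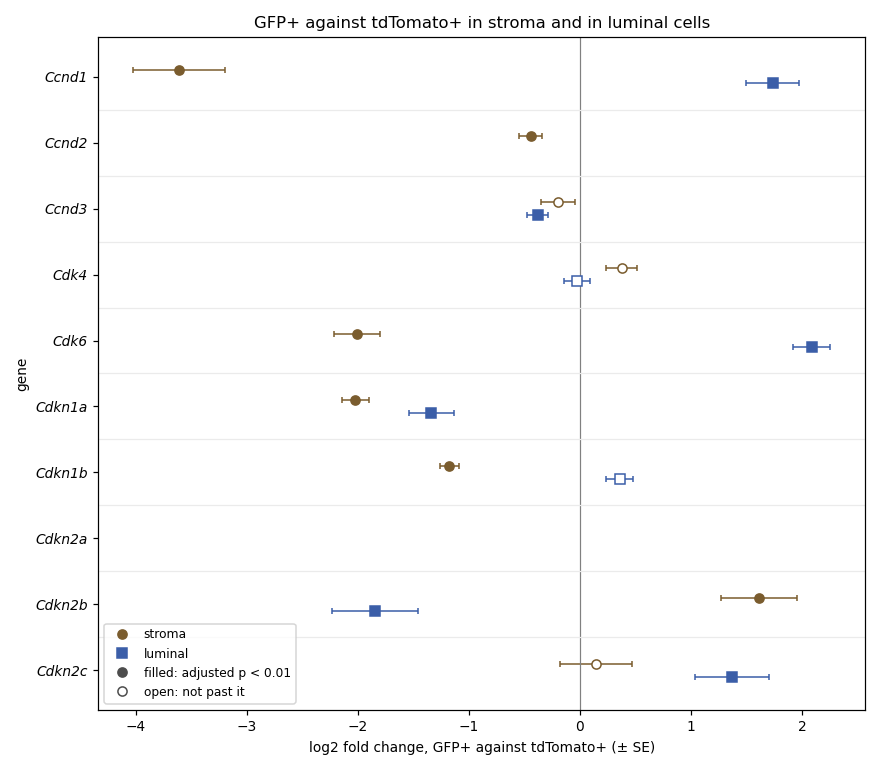
Log2 fold change of GFP+ over tdTomato+ libraries for each gene in stroma and in luminal cells, from edgeR, with bars of 1 SE (7 mice). Ccnd1 and Cdk6 lie below 0 in stroma (-3.61 and -2.01) and above 0 in luminal cells (1.74 and 2.09), and Cdkn2b does the reverse (1.61 and -1.84).

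Among the D cyclins, Ccnd2 was high in stroma and at most a trace in luminal cells, where Ccnd1 was highest. Cyclin D2 is a D cyclin used by many mesenchymal and blood cells. In stroma Ccnd2 was read at 175, 155, 211 and 147 CPM in untreated GFP+, 163, 157 and 165 CPM in E+P GFP+, 211, 219, 194 and 257 CPM in untreated tdTomato+ and 264, 214 and 207 CPM in E+P tdTomato+ libraries. In luminal cells the highest of 14 libraries was 1.74 CPM (untreated tdTomato+ replicate 3) and 1 library had 0 counts. Every stromal library was therefore above every luminal one, with a log2 fold change of 9.26 (SE 0.32, edgeR adjusted p = 1.80e-17), a fit that rests in luminal cells on 21, 13, 34 and 12 reads summed over a group. The overlapping 9330179D12Rik was also higher in stroma (6.06, edgeR adjusted p = 6.75e-06). The luminal libraries with the most Ccnd2, at 1.74 and 1.10 CPM, also had the most skeletal muscle marker reads of their groups, 44.0 and 32.8 CPM, and the part of these in the Ccnd2 value was not tested. Within stroma Ccnd2 was slightly lower in GFP+ cells (log2 fold change -0.44, SE 0.10, edgeR adjusted p = 0.00150, lower in 6 of 7 mice), a call lost in untreated mice alone and without E+P replicate 1.

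Ccnd1, the D cyclin that steroid hormones and growth factors induce in epithelium, was the main D cyclin of luminal cells. It was called lower in stroma (stroma minus luminal -3.75, SE 0.25, edgeR adjusted p = 5.07e-12), as was LTO1 (-0.67, edgeR adjusted p = 9.04e-07). The lineages overlapped: with E+P, Ccnd1 was at 36.7 to 43.7 CPM in tdTomato+ stroma and 35.3 to 53.6 CPM in tdTomato+ luminal libraries. Untreated GFP+ luminal libraries held 159, 106, 208 and 263 CPM and E+P ones 306, 299 and 278 CPM. Untreated tdTomato+ luminal libraries held 102, 54.1, 88.5 and 152 CPM and E+P ones 53.6, 53.1 and 35.3 CPM. With E+P, then, Ccnd1 libraries lay above the untreated in GFP+ and below them in tdTomato+ luminal cells, without overlap in either. Neither difference was called, at a log2 fold change of 0.68 (SE 0.33, edgeR adjusted p = 0.188) and -1.04 (SE 0.34, edgeR adjusted p = 0.0395). The difference between these responses was 1.71 (SE 0.47) and the edgeR adjusted p was 0.0491 without and 0.00112 with mouse as a block. DESeq2 called it too.

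In stroma Ccnd1 depended on the subset. GFP+ libraries held 2.73, 7.29, 1.89 and 1.47 CPM untreated and 3.49, 1.16 and 2.07 CPM with E+P. The tdTomato+ libraries held 36.7, 36.4, 22.9 and 9.72 CPM untreated and 36.7, 43.7 and 41.5 CPM with E+P. No GFP+ library reached a tdTomato+ one (log2 fold change -3.61, SE 0.41, edgeR adjusted p = 5.97e-06). Luminal marker sums were 79.0, 291, 472 and 18.2 CPM in the 4 untreated tdTomato+ libraries and at most 38.0 CPM in the E+P ones. Without untreated tdTomato+ replicates 2 and 3, a choice made after the data were seen, the log2 fold change was -3.53. The part of luminal RNA, or of the mixed cell types of tdTomato+ stroma, in this difference was not tested. In luminal cells Ccnd1 was instead higher in GFP+ cells (1.74, SE 0.24, edgeR adjusted p = 9.04e-05, 7 of 7 mice), a call that E+P mice made (2.63, adjusted p = 1.35e-05) and untreated mice alone did not (0.89, adjusted p = 0.0904). The subset difference in stroma minus that in luminal cells was -5.37 (SE 0.49, edgeR adjusted p = 5.98e-09). The overlapping LTO1 went the other way, higher in GFP+ stroma (0.64, edgeR adjusted p = 0.00289) and lower in GFP+ luminal cells (-0.47, edgeR adjusted p = 0.00795). Ordered by mean, the groups ran from E+P GFP+ luminal (294 ± 14.5 CPM, SD, n = 3) to E+P GFP+ stroma (2.24 ± 1.17 CPM, SD, n = 3), and neighbours in this order did not overlap in 3 of 7 steps.

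Ccnd3, the D cyclin found most widely across tissues, varied least of the D cyclins, with groups from 19.7 to 42.0 CPM on average. In tdTomato+ luminal cells it was at 45.6, 35.3, 32.7 and 43.1 CPM untreated and at 24.9, 22.1 and 21.7 CPM with E+P. It fell there in every E+P library (log2 fold change -0.75, SE 0.14, edgeR adjusted p = 0.00150), a call that was lost without E+P replicate 2 (adjusted p = 0.0119) or 3 (0.0148). GFP+ luminal libraries were at 30.4, 27.5, 27.1 and 26.4 CPM untreated and 16.8, 21.7 and 20.5 CPM with E+P, also without overlap, but the difference was not called (-0.50, SE 0.14, edgeR adjusted p = 0.0263). Bysl, which overlaps Ccnd3 on the other strand, rose in tdTomato+ luminal cells (0.87, edgeR adjusted p = 0.00655). Ccnd3 was called lower in luminal than in stromal cells (stroma minus luminal 0.53, SE 0.10, edgeR adjusted p = 2.72e-05). The call was lost in untreated mice alone (0.25, adjusted p = 0.101) and with library size scaling (0.23, adjusted p = 0.0288). Bysl differed in the same direction (1.24, edgeR adjusted p = 3.42e-10). Ccnd3 was also called lower in GFP+ than tdTomato+ luminal cells (-0.38, SE 0.10, edgeR adjusted p = 0.00490), where Bysl was at 0.18 (edgeR adjusted p = 0.325). That call was lost when any 1 of untreated replicates 1 and 4 or any E+P replicate was left out.

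Per kilobase of exon, which sets the genes on 1 scale, Ccnd2 made up 79.1% ± 4.90 (SD, n = 4) of the D cyclin level in untreated GFP+ stroma and 69.6% ± 10.2 in untreated tdTomato+ stroma. Ccnd1 made up 91.6% ± 3.12 in untreated GFP+ luminal cells and 81.0% ± 5.31 in untreated tdTomato+ luminal cells. With E+P the summed D cyclin level was 64.7 ± 2.95 CPM per kb in GFP+ luminal cells against 42.3 ± 14.2 untreated, and 12.7 ± 2.35 in tdTomato+ luminal cells against 25.6 ± 9.09 untreated. Exon length is that of all annotated exons merged, not of the transcripts in use.

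**Figure D3:**
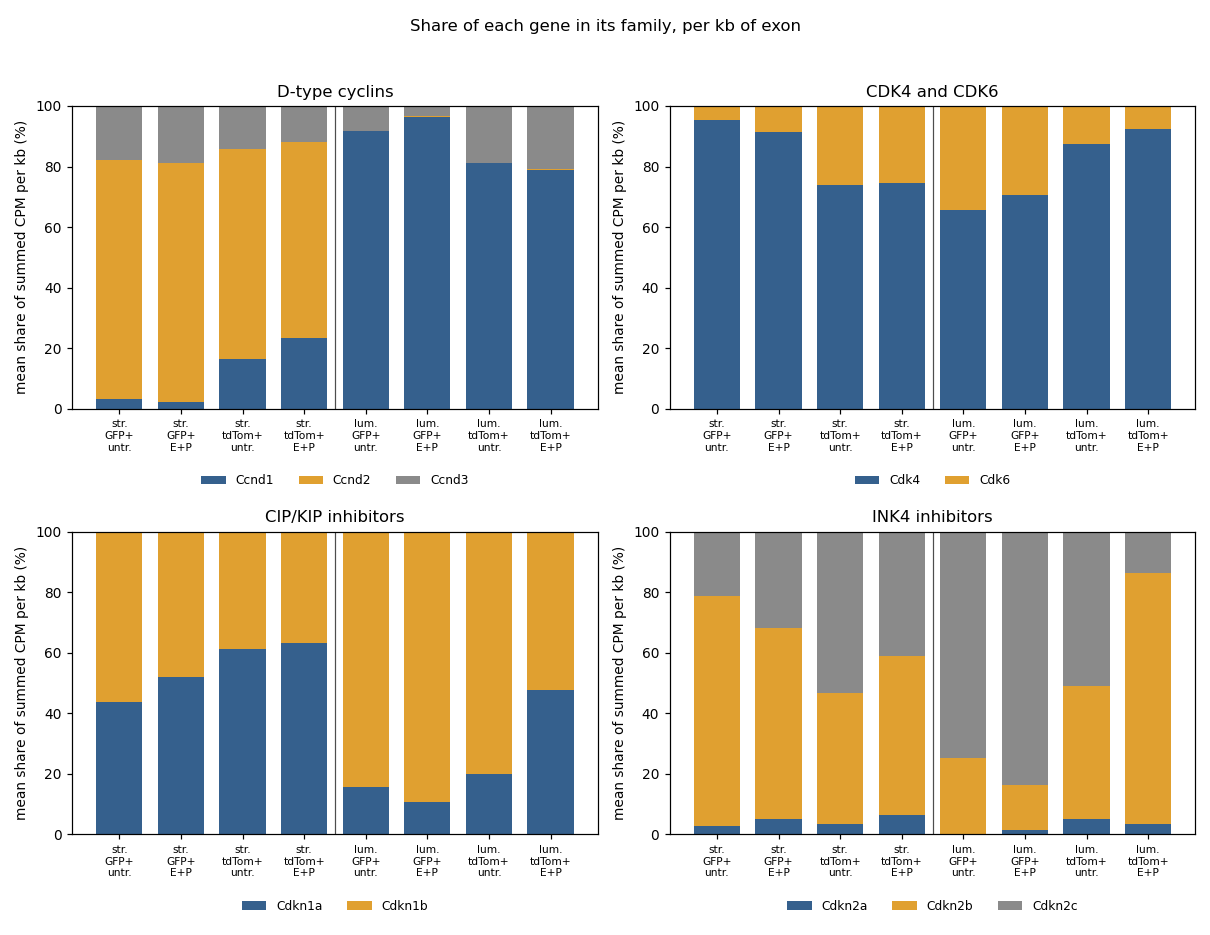
Mean share of each gene in the summed CPM per kilobase of its family, in each of 8 groups (4 untreated or 3 E+P libraries). The families are the D cyclins, CDK4 and CDK6, the CIP/KIP inhibitors without Cdkn1c and the INK4 inhibitors without Cdkn2d. Ccnd2 takes most of the D cyclin bar in stroma and Ccnd1 in luminal cells, and Cdkn1a goes from 19.9% to 47.7% of the CIP/KIP bar with E+P in tdTomato+ luminal cells.

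Of the kinases, Cdk4 had group means between 22.7 and 49.1 CPM and rose with E+P in GFP+ luminal cells. It stood there at 27.5, 25.7, 35.3 and 29.2 CPM untreated and 50.5, 51.2 and 45.5 CPM with E+P, with no overlap. The log2 fold change was 0.73 (SE 0.16, edgeR adjusted p = 0.00897), close to the threshold: leaving out a mouse ended the call for 6 of 7 mice, untreated replicates 1, 2 and 4 and each E+P replicate, and the adjusted p ran from 0.000882 to 0.0475 over all alternatives while the fold change stayed between 0.63 and 0.83. Without the 2 untreated libraries richest in hormone-sensing markers it was 0.83 (edgeR adjusted p = 0.0231). Other marker sums of GFP+ luminal libraries also separated E+P from untreated mice: basal epithelial markers (5 of 5 with counts, none at 0) at 117 to 132 CPM against 41.6 to 85.6, and luminal progenitor and alveolar markers (8 of 8) at 1393 to 1690 CPM against 1944 to 3175. Fibroblast sums were lower with E+P (22.2 to 24.9 against 35.8 to 110 CPM), as were pericyte and smooth muscle sums (133 to 150 against 158 to 210 CPM). So were immune (4.92 to 5.66 against 5.77 to 8.81 CPM) and adipocyte sums (0.333 to 0.680 against 1.01 to 1.57 CPM), with some list genes at 0. Their part in the result was not tested. The tdTomato+ luminal libraries were at 37.4, 34.1, 30.3 and 26.8 CPM untreated and 56.2, 42.8 and 36.2 CPM with E+P, where the lowest E+P library lay under the highest untreated one (0.51, SE 0.16, edgeR adjusted p = 0.0311). The responses of the luminal subsets were not shown to differ (difference 0.22, SE 0.23, edgeR adjusted p = 0.636). Tspan31, on the other strand, had a log2 fold change of 0.18 (edgeR adjusted p = 0.527) in GFP+ and 0.40 (edgeR adjusted p = 0.0993) in tdTomato+ luminal cells. In stroma Cdk4 lay between 16.4 and 38.5 CPM in all 14 libraries, and it was called lower there than in luminal cells (edgeR adjusted p = 0.000260) but not in untreated mice alone (-0.17, adjusted p = 0.248).

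Cdk6, the alternative partner of D cyclins, marked the subsets instead. Luminal GFP+ libraries held 52.1, 65.2, 62.4 and 87.1 CPM untreated and 96.5, 84.2 and 83.0 CPM with E+P. Luminal tdTomato+ libraries held 16.2, 13.8, 19.7 and 27.7 CPM untreated and 19.3, 16.6 and 12.5 CPM with E+P. All GFP+ were above all tdTomato+ libraries (log2 fold change 2.09, SE 0.17, edgeR adjusted p = 1.16e-06), in untreated mice alone (1.79, adjusted p = 0.00391) as in E+P mice alone (2.44, adjusted p = 1.58e-05). In stroma the order was inverted. GFP+ stroma held 8.86, 6.75, 4.51 and 5.51 CPM untreated and 20.4, 8.98 and 10.4 CPM with E+P. The tdTomato+ stroma held 42.3, 35.8, 33.7 and 23.7 CPM untreated and 31.6, 48.0 and 38.5 CPM with E+P. No library of the former reached the latter (-2.01, SE 0.21, edgeR adjusted p = 2.96e-07), and the subset difference differed between the lineages by -4.11 (SE 0.28, edgeR adjusted p = 1.79e-11).

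In GFP+ stroma the E+P libraries all held more Cdk6 than the untreated, the lowest at 8.98 against 8.86 CPM, and this gene had the lowest p of the set there (log2 fold change 1.05, SE 0.29, edgeR adjusted p = 0.136). It was called only when no low-count filter was used (edgeR adjusted p = 0.00115). E+P replicate 1, at 20.4 CPM, was well above the others. Per kilobase Cdk4 was the main kinase in every group, from 65.6% ± 5.57 of the pair in untreated GFP+ luminal cells (SD, n = 4) to 95.4% ± 1.85 in untreated GFP+ stroma.

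Among the CIP/KIP inhibitors, Cdkn1a (p21, a target of p53) was highest in tdTomato+ stroma and rose with E+P in tdTomato+ luminal cells. The latter held 19.2, 32.7, 22.3 and 12.2 CPM untreated and 43.3, 55.9 and 48.8 CPM with E+P, every E+P library being above every untreated one. The log2 fold change was 1.22 (SE 0.28, edgeR adjusted p = 0.00577). The call was lost without untreated replicate 1 or 3 or any E+P replicate, with library size scaling, without the low-count filter and in a fit of these 2 groups alone, and the adjusted p over all alternatives ran from 0.000334 to 0.0374. GFP+ luminal libraries held 18.9, 12.1, 13.0 and 9.28 CPM untreated and 11.7, 11.7 and 15.3 CPM with E+P, and these overlapped (-0.05, SE 0.29, edgeR adjusted p = 0.938). The difference between these responses was -1.27 (SE 0.40, edgeR adjusted p = 0.0759) and was not called. In E+P tdTomato+ luminal cells markers of other cells moved too. Endothelial markers (5 of 5 with counts) summed to 220 to 241 CPM against 31.1 to 134 untreated, and basal epithelial markers (5 of 5) to 35.4 to 62.5 CPM against 7.61 to 18.3. Hormone-sensing markers (8 of 8) summed to less, 2269 to 3448 CPM against 3723 to 5316, as did progenitor and alveolar markers (7 of 8, Wap at 0), 119 to 220 CPM against 224 to 902, and the Schwann cell list (4 of 4), 42.0 to 61.5 CPM against 109 to 129. None of these sums overlapped between E+P and untreated libraries. Their part in the result was not tested.

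In stroma Cdkn1a was at 25.8, 30.2, 27.1 and 37.8 CPM in untreated and 39.2, 29.2 and 41.1 CPM in E+P GFP+ libraries. In tdTomato+ stroma it was at 97.0, 128, 151 and 129 CPM untreated and 139, 137 and 145 CPM with E+P. The gap between subsets was larger than any spread within them (log2 fold change -2.02, SE 0.12, edgeR adjusted p = 3.81e-10). The 10 dissociation stress genes were well expressed in every library. They summed to 6978 to 12690 CPM in stromal and 2153 to 7747 CPM in luminal libraries, and their part in the Cdkn1a differences was not tested. Cdkn1a was also called lower in GFP+ luminal cells (-1.34, SE 0.20, edgeR adjusted p = 0.000129), with -0.69 in untreated mice alone (adjusted p = 0.136) and -1.94 in E+P mice alone (adjusted p = 2.49e-05), and higher in stroma than in luminal cells (1.68, SE 0.12, edgeR adjusted p = 3.12e-12).

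Cdkn1b (p27), the inhibitor that typically holds cells in quiescence, was the most abundant of the inhibitor genes described here per kilobase in luminal cells. It made up 80.1% ± 4.36 of the CIP/KIP level in untreated tdTomato+ and 84.3% ± 6.71 in untreated GFP+ luminal cells (SD, n = 4). This level is the sum of Cdkn1a and Cdkn1b, without Cdkn1c. GFP+ luminal libraries held 70.5, 100, 106 and 103 CPM untreated and 133, 128 and 144 CPM with E+P. The tdTomato+ luminal libraries held 80.7, 139, 123 and 95.1 CPM untreated and 67.6, 64.1 and 75.5 CPM with E+P. So the E+P libraries lay above the untreated in GFP+ and below them in tdTomato+ luminal cells, as they did for Ccnd1. Neither was called (0.51, SE 0.17, edgeR adjusted p = 0.0588, and -0.64, SE 0.17, edgeR adjusted p = 0.0156). The difference between the responses was 1.15 (SE 0.24), with an edgeR adjusted p of 0.0123 without and 0.00242 with mouse as a block. It was also called with library size scaling, DESeq2, no low-count filter or without untreated replicate 1 (adjusted p from 0.000994 to 0.00696). The GFP+ to tdTomato+ luminal difference was 0.36 (edgeR adjusted p = 0.0260), called with mouse as a block (0.00242), with library size scaling (0.00256) and without untreated replicate 1 (0.00698). It was -0.21 in untreated mice alone (adjusted p = 0.447) and 0.96 in E+P mice alone (adjusted p = 0.000132).

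In stroma Cdkn1b was at 44.8 to 57.5 CPM in untreated and 41.2 to 44.8 CPM in E+P GFP+ libraries, and at 95.7 to 109 CPM in all 7 tdTomato+ libraries. The subsets did not overlap (log2 fold change -1.18, SE 0.09, edgeR adjusted p = 3.65e-09). E+P libraries of GFP+ stroma lay just under the untreated ones without a call (-0.19, SE 0.12, edgeR adjusted p = 0.804). The subset difference differed between stroma and luminal cells by -1.54 (SE 0.15, edgeR adjusted p = 5.12e-09). With E+P the CIP/KIP level of tdTomato+ luminal cells was 29.1 ± 1.77 CPM per kb against 30.1 ± 7.83 untreated, while Cdkn1a's share of it went from 19.9% ± 4.36 to 47.7% ± 4.38 (SD, n = 4 and 3).

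**Figure D4:**
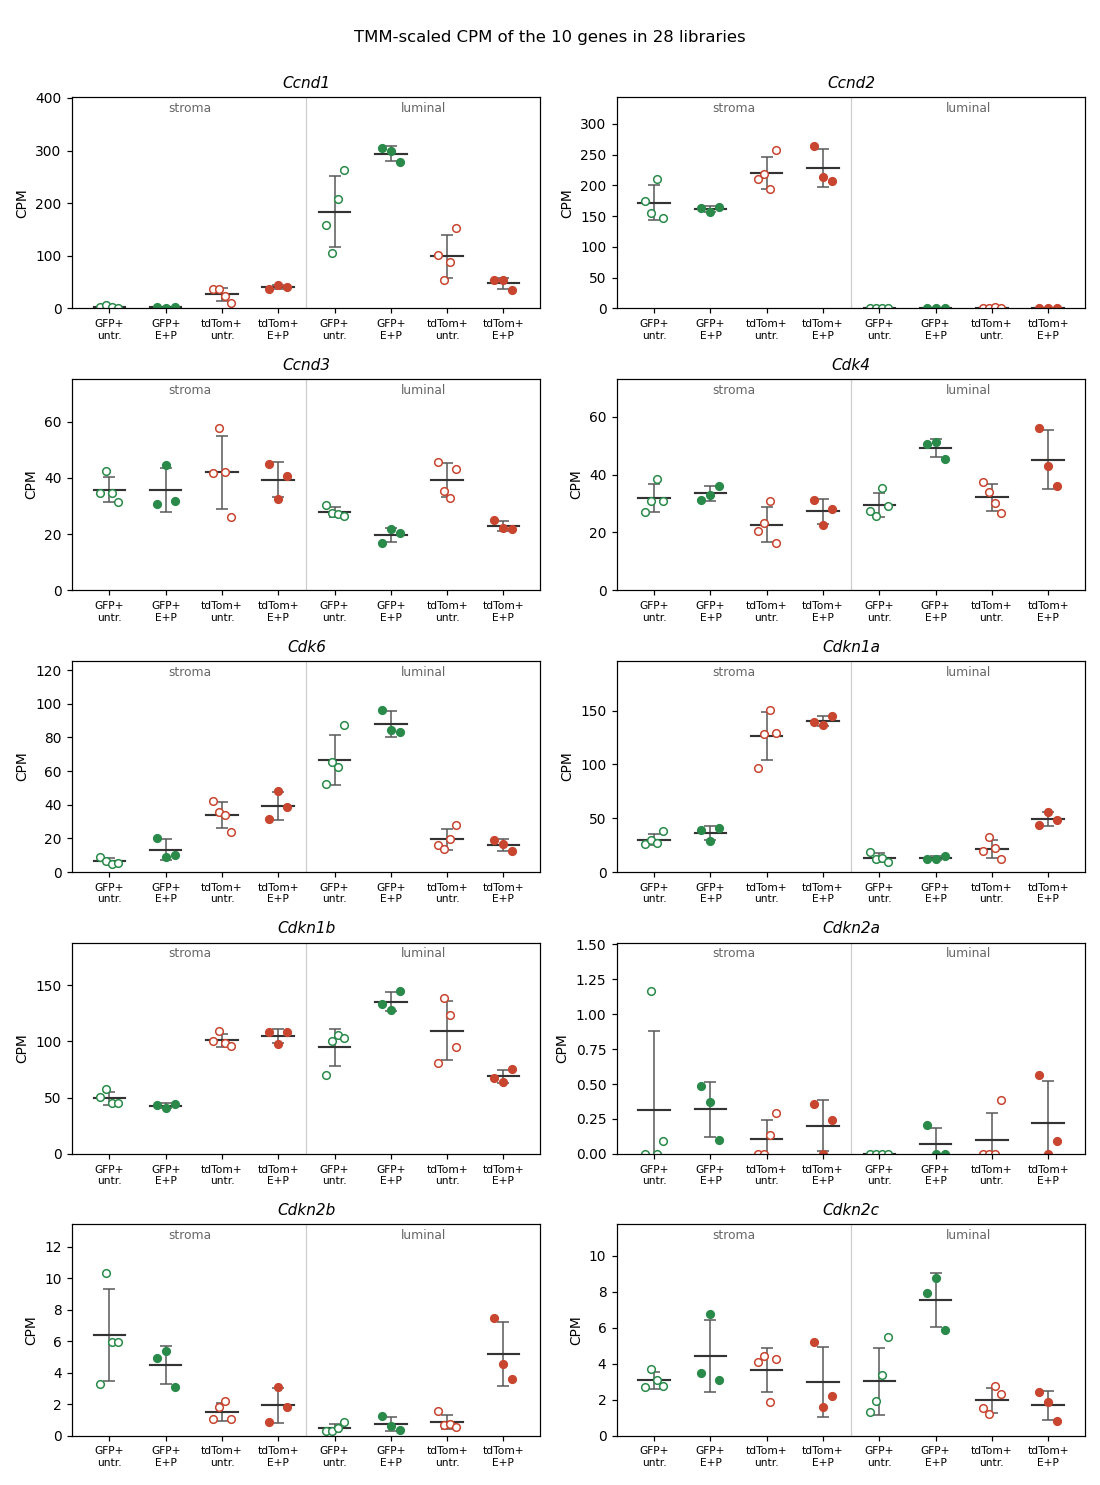
CPM of each gene in every library, 1 panel a gene on its own linear axis, with open points for untreated and filled points for E+P mice, green for GFP+ and red for tdTomato+ cells, a bar at the mean and an error bar of 1 SD (n = 4 or 3). Ccnd2 is near 0 in all luminal libraries, Cdk6 separates the subsets in opposite directions in stroma and luminal cells, and Cdkn2a is near 0 throughout.

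The INK4 inhibitors were low in all groups, and Cdkn2b (p15, a target of TGF-beta signalling) carried the differences. In tdTomato+ luminal cells it was at 1.55, 0.670, 0.723 and 0.543 CPM untreated and 7.46, 4.53 and 3.57 CPM with E+P, without overlap. It rose by the largest step of the set (log2 fold change 2.58, SE 0.50, edgeR adjusted p = 0.00212), the call being lost without E+P replicate 1 (adjusted p = 0.0115) or 2 (0.0109). In GFP+ luminal cells it was at 0.317, 0.302, 0.514 and 0.865 CPM untreated and 1.22, 0.647 and 0.333 CPM with E+P (0.50, SE 0.57, edgeR adjusted p = 0.600). The difference between the responses, -2.08 (SE 0.77, edgeR adjusted p = 0.123), was not called. The marker sums given for Cdkn1a moved in the same libraries, and their part was not tested. GFP+ stroma held 3.26, 10.3, 5.92 and 5.97 CPM untreated and 4.95, 5.39 and 3.10 CPM with E+P. The tdTomato+ stroma held 0.869 to 3.07 CPM over its 7 libraries, all below GFP+ stroma (1.61, SE 0.34, edgeR adjusted p = 0.000683), with 1.20 in E+P mice alone (adjusted p = 0.0752). In luminal cells the GFP+ subset was the lower one (-1.84, SE 0.38, edgeR adjusted p = 0.00123), in 6 of 7 mice. Exact sign flips over mice gave an unadjusted p of 0.0469. The luminal subsets overlapped in untreated mice, at 0.302 to 0.865 CPM in GFP+ and 0.543 to 1.55 CPM in tdTomato+ libraries. With E+P they did not, at 0.333 to 1.22 and 3.57 to 7.46 CPM. The part of the E+P rise of tdTomato+ luminal cells in this call was not tested. The subset difference in stroma minus that in luminal cells was 3.44 (SE 0.52, edgeR adjusted p = 6.12e-06). Stroma minus luminal cells, Cdkn2b itself was at 1.42 (SE 0.26, edgeR adjusted p = 2.63e-05). That call was lost in E+P mice alone (0.62, adjusted p = 0.164).

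Cdkn2c (p18), which binds CDK4 and CDK6 like its relatives, was called only between the luminal subsets. GFP+ luminal libraries held 1.33, 1.91, 3.37 and 5.51 CPM untreated and 7.96, 8.78 and 5.87 CPM with E+P. The E+P libraries were all above the untreated ones without a call (log2 fold change 1.31, SE 0.45, edgeR adjusted p = 0.0679). The tdTomato+ luminal libraries held 1.22 to 2.75 CPM untreated and 0.809 to 2.41 CPM with E+P. The GFP+ to tdTomato+ luminal difference was called (1.37, SE 0.34, edgeR adjusted p = 0.00387), in E+P mice alone (2.16, adjusted p = 0.00189) but not in untreated mice alone (0.63, adjusted p = 0.346), nor without E+P replicate 2 or 3. In stroma all 14 libraries lay between 1.58 and 6.76 CPM, and no comparison was called.

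Cdkn2a, which encodes p16 and p19Arf, had a count in 13 of 28 libraries. Its highest value was 1.16 CPM, in untreated GFP+ stroma replicate 2, where the other untreated libraries held 0, 0 and 0.0918 CPM. The 4 untreated GFP+ luminal libraries had 0 counts, which allows up to 0.207 to 0.348 CPM, and E+P GFP+ luminal libraries held 0.204, 0 and 0 CPM. No comparison of Cdkn2a was tested in edgeR. Exact tests of E+P in each population and of GFP+ against tdTomato+ cells in each lineage gave an unadjusted p of 0.25 or more. It had a count in 9 of 14 stromal and 4 of 14 luminal libraries. Exact sign flips over mice gave an unadjusted p of 0.03125 between stroma and luminal cells, and 0.0833 after Benjamini-Hochberg adjustment over 80 exact tests. The INK4 level per kilobase is the sum of Cdkn2a, Cdkn2b and Cdkn2c, without Cdkn2d. Of it, Cdkn2b made up 75.9% ± 4.41 in untreated GFP+ stroma and Cdkn2c 74.8% ± 4.19 in untreated GFP+ luminal cells (SD, n = 4). With E+P Cdkn2b made up 83.0% ± 3.76 in tdTomato+ luminal cells (n = 3).

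The genes downstream of the G1 kinases were described by a list of 26 S phase and mitosis genes. In GFP+ luminal cells 22 of 26 rose with E+P and none fell, where 3.17% of all genes rose, with a median log2 fold change of 2.43 against -0.03 over all genes. Bub1, a spindle checkpoint kinase, rose by 3.24, Ccnb2, a mitotic cyclin, by 3.18 and Mki67, a marker of cycling cells, by 3.17 on the log2 scale (edgeR adjusted p = 0.00357, 0.00133 and 0.00757). The list summed to 427 ± 223 CPM untreated and 2386 ± 264 CPM with E+P (SD, n = 4 and 3). In tdTomato+ luminal cells 3 rose (Rrm2, Ccnb2 and Rrm1) and 1 fell (Mcm6, -0.94), a share near the 14.1% of all genes called there. The list median there was still 1.08 against -0.05 over all genes. The sums were 318 ± 70.0 CPM untreated and 565 ± 103 CPM with E+P, at 235 to 406 and 454 to 658 CPM without overlap. The E+P response was called higher in GFP+ than tdTomato+ luminal cells for 2 of the 26 genes, with a median difference of 1.14 against 0.01 over all genes. In stroma none of the 24 tested was called in either subset. The E+P GFP+ luminal libraries held 2143 to 2667 CPM of the S phase and mitosis genes against 242 to 721 untreated. In the same libraries Ccnd1, Cdk4, Cdkn1b and Cdkn2c lay above every untreated library and Ccnd3 below, where 27.6% of all genes did not overlap. Only Cdk4 of these was called, and their link to the list was not tested.

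Of 24 other G1 regulators, 9 rose in GFP+ luminal cells (3.17% of all genes) and none fell, led by the E2F factors E2f8 (log2 fold change 2.98), E2f1 (2.64) and E2f2 (2.17), with edgeR adjusted p values of 0.00897, 0.00387 and 0.00195. In tdTomato+ luminal cells E2f1 (2.30) and the CDK subunit Cks1b (1.11) rose, where 7.63% of all genes did, with edgeR adjusted p values of 0.00761 and 0.00159, and none was called in stroma. Cdkn1c (p57), the remaining CIP/KIP inhibitor, was higher in stroma than in luminal cells by 4.68 and higher in GFP+ than tdTomato+ stroma by 2.84 on the log2 scale (edgeR adjusted p = 1.98e-13 and 6.28e-07), the reverse of Cdkn1a and Cdkn1b within stroma. Rb1, the main substrate of these kinases, was higher in GFP+ luminal cells (1.81, edgeR adjusted p = 2.34e-05) and lower in stroma than in luminal cells (-1.77, edgeR adjusted p = 8.48e-13).

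Of 18 p53 target genes other than Cdkn1a, 4 rose with E+P in tdTomato+ luminal cells, where Cdkn1a and 7.63% of all genes did, with a median log2 fold change over the list of 0.55 against -0.05 over all genes. They included Gdf15, a stress cytokine (2.27), Perp, a desmosomal protein (2.11), and Zmat3 (0.73), with edgeR adjusted p values of 0.00549, 2.71e-06 and 0.00816. In GFP+ luminal cells 1 fell (Rrm2b, -0.74, edgeR adjusted p = 0.00464) and none rose. Of 15 Polycomb genes, whose complexes are known to silence the Ink4 locus, Cbx2, Ezh2 and Jarid2 rose in GFP+ luminal cells (1.23, 0.92 and 0.91; 3.17% of all genes rose), and Cbx2 rose (1.95) and Phc2 fell (-0.57) in tdTomato+ luminal cells, all in edgeR, the latter near the 14.1% of all genes called there. Neither list had a call under E+P in stroma.

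Over 28 libraries and 14765 genes, the gene whose log2 CPM followed each member most closely was Eml5 for Ccnd1 (Pearson's r = 0.971), Ebf1 for Ccnd2 (0.993), Mgrn1 for Ccnd3 (0.866), Tmem229b for Cdk4 (0.855) and Ppp2r3a for Cdk6 (0.915). For the inhibitors it was Rnf217 for Cdkn1a (0.963), Nemp2 for Cdkn1b (0.909), Adh7 for Cdkn2b (0.896) and Bahcc1 for Cdkn2c (0.749). The libraries fall into 4 sorted populations, 4 libraries come from each mouse and all share the depth scaling, so these values describe patterns across populations and were not tested.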

How the data were processed

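Raw read counts per gene were deposited by the authors, who made total RNA libraries with the SMARTer stranded pico kit from 2 ng of RNA and 15 PCR cycles (RNA integrity numbers from 1 to 10), sequenced them as paired ends and aligned them with STAR 2.5.2a to GRCm38.p5. The counting tool, its strand setting and the GENCODE release are not given in the sources used here. The doses of the E+P pellets, 0.14 mg estradiol and 14 mg progesterone over 14 days, are stated by the study for wild-type mice.

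The genes and lists were chosen with earlier results of these data known. Gene IDs were matched to GENCODE M21 (50376 of 50600). Groups came from the sample labels. Counts were filtered with filterByExpr, scaled by TMM and tested with edgeR 4.0.16 (robust quasi-likelihood, Benjamini-Hochberg adjusted p under 0.01 as the study used) in R 4.3.3, with 1 fit for each lineage and 1 for both (19569 genes). DESeq2 1.42.0, limma-voom 3.58.1, other scalings, no filter, an adjusted p under 0.05, blocks, subsets of mice and leaving out each mouse were alternatives. Two-sided exact tests on log2 CPM (prior count 2), a permutation test of 3 against 4 libraries or sign flips over 7 mice, cannot go below p = 0.0286 and 0.0156. Fits were tested on simulated data with 200 changed genes. GFP+ and tdTomato+ libraries come from the same animals. They were paired by mouse in the sign flips and the mouse block only, and the main edgeR fits held no term for the mouse. Deviations of GFP+ and tdTomato+ libraries of a mouse correlated at a mean r of 0.0496 in stroma and 0.157 in luminal cells (7 pairs each). Between mice these were -0.0194 and -0.0605, and stroma with luminal libraries of a mouse correlated at 0.0555 (14 pairs). Genes were named as the 10 members, opposite-strand neighbours and, of each list, the 3 largest called changes in each direction. Sequences came from RefSeq tables, Python 3.11.15 finding the motifs.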

Additional observations from a re-analysis of the deposited data

Results flagged for a closer look

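In groups of 4 libraries, 39 combinations of gene and group were tested for a library standing apart by Dixon's criterion, and 5 did so. Chance flags about 1 in 20. Ccnd2 stood at 1.74 CPM in untreated tdTomato+ luminal replicate 3, above the rest of its group, and Cdkn1b at 70.5 CPM in untreated GFP+ luminal replicate 1, below it. Cdkn2a stood at 1.16 CPM in untreated GFP+ stroma replicate 2 and at 0.388 CPM in untreated tdTomato+ luminal replicate 4, both above it. Cdkn2c stood at 1.86 CPM in untreated tdTomato+ stroma replicate 3, below it.

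For 4 genes the log2 difference of GFP+ over tdTomato+ cells differed between stroma and luminal cells by edgeR's interaction test. Stroma minus luminal, it was -5.37 for Ccnd1, -4.11 for Cdk6, -1.54 for Cdkn1b and 3.44 for Cdkn2b, with the same sign in 7 of 7 mice for each. The sorted stroma and epithelium hold different cell types, and the part of their makeup in these differences was not tested.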

How the results depend on the processing

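Over 86 values of the genes in the comparisons, 28 of them called, 1392 alternative values kept their direction and side of the threshold in 1273 cases. They lost the call in 43, gained it in 33 and changed sign in 43, and no called value changed sign. Alternatives that leave out the 2 tdTomato+ stromal libraries with most luminal RNA and the 2 GFP+ luminal libraries with most hormone-sensing RNA were chosen after seeing the data, as was the difference of subset differences. The depth of about 15329083.5 reads limits Cdkn2a, Cdkn2b, and luminal Ccnd2. Causes were not tested.

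Members called moved as follows. E+P in GFP+ stroma gave 1 without the low-count filter. In GFP+ luminal cells library size scaling, a number block and leaving out the 2 hormone-sensing-rich libraries gave 0, DESeq2 and an adjusted p under 0.05 gave 2, and leaving out a mouse gave 0 to 1. In tdTomato+ luminal cells DESeq2 gave 5, an adjusted p under 0.05 gave 6 and leaving out a mouse 0 to 4 (1, 0 and 1 without E+P replicates 1, 2 and 3). GFP+ against tdTomato+ luminal cells gave 1 in untreated mice alone. The E+P response by subset in luminal cells gave 1 with library size scaling or no filter, 2 with DESeq2, an adjusted p under 0.05 or mouse as a replicate block, and 0 to 1 leaving out a mouse. The mouse block otherwise added only the Cdkn1b call between luminal subsets. Untreated and E+P mice share only a number (mean r from -0.0436 to 0.0129). With that number as a replicate block the Cdk4 and Cdkn1a calls under E+P were lost (adjusted p = 0.0232 and 0.0105).

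Of all genes, those called at an adjusted p under 0.01 ran from 16 to 459 (41 as reported) for E+P in GFP+ stroma, 0 to 840 (22) in tdTomato+ stroma, 169 to 2035 (985) in GFP+ luminal and 1140 to 3558 (2327) in tdTomato+ luminal cells. Subset counts in untreated mice alone were 3920 in stroma and 1226 in luminal cells, against 7466 and 5745, and E+P by subset gave 1 to 506 (8) in stroma and 33 to 1014 (376) in luminal cells.

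Changes of sign were all of uncalled log2 values, here with the range leaving out a mouse. For E+P in GFP+ stroma Ccnd3 was -0.0059 with DESeq2 or its size factors, -0.064 with a number block, -0.0060 with only these groups and -0.0018 without the luminal-rich libraries (-0.20 to 0.11). Ccnd1 ran from -1.03 to 0.096 and Ccnd2 from -0.15 to 0.037. In tdTomato+ stroma without those libraries Ccnd3 was 0.20 (-0.25 to 0.092) and Ccnd2 -0.047 (-0.066 to 0.15). Cdkn2b ran from -0.20 to 0.67 and Cdkn2c from -0.95 to 0.027. In GFP+ luminal cells Cdkn1a was 0.27 without the hormone-sensing-rich libraries (-0.19 to 0.16) and Cdkn2b ran from -0.075 to 0.91, and in tdTomato+ luminal cells Cdkn2c ran from -0.53 to 0.15. Between subsets, stromal Cdkn2c was -0.29 in untreated mice (-0.22 to 0.56). Luminal Cdk4 was 0.115 with library size scaling, 0.0038 with limma-voom and 0.11 in E+P mice (-0.095 to 0.090), and luminal Cdkn1b -0.21 in untreated mice. With library size scaling Cdkn2c was -0.0435 in stroma against luminal cells. For the subset difference in stroma minus that in luminal cells, Ccnd3 was -0.029 with library size scaling and Ccnd2 ran from -1.36 to 0.48. For E+P by subset in stroma without the luminal-rich libraries Ccnd3 was -0.20 (-0.23 to 0.31) and Cdkn1a -0.023 (-0.0011 to 0.24), and Ccnd2 ran from -0.30 to 0.045.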
